A study of Mus musculus with 2 samples.

Results

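Complement genes and their regulators were followed across cell classes in single-nucleus RNA sequencing of mouse kidney. The 9 members, C1qa, C1qb, C4b, C3, Cfb, C7, Cfi, Cd55 and Cd46, were taken by gene symbol from the 32285 genes of the files, and each had exactly 1 row. The rule uses the symbols alone, but the list was drawn up with earlier results of these data known, so counts and medians over the members describe a chosen list. All mice were male, carried the T1+/+ genotype as the labels write it, and were 11 weeks old at surgery. In the nephrectomy group the right kidney was taken out and, 1 week later, both poles of the left kidney were tied off (5/6 nephrectomy), while the sham group had both flanks opened and closed with the kidneys left in place. Kidney tissue was collected 4 weeks after surgery and frozen, and nuclei were captured on the 10x Genomics Chromium system. The labels do not say how many mice went into a library or which part of the remnant kidney was used.

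Complement is a cascade of plasma proteins in which C1q, made mainly by tissue macrophages, starts the classical pathway, and factor B (Cfb) drives the alternative pathway. The pathways meet at C3, whose cleavage tags surfaces and leads to the membrane attack complex of which C7 is a part. Factor I (Cfi) and the membrane proteins CD55 and, in humans, CD46 limit the cascade on the body's own cells. The liver makes most circulating complement, and kidney tubule and stromal cells are known to make some components locally.

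Each group was 1 library, so no difference between them has a replicate check, no test was possible, and every interval is a 95% interval for counting error only. Captured RNA molecules were counted by unique molecular identifiers (UMIs), of which there were 21365116 over 3084 barcodes in sham and 28284727 over 3299 barcodes in nephrectomy, with medians of 5140 and 6844 per barcode. After filtering, 2868 sham and 3058 nephrectomy nuclei were compared, and 2 barcode sequences occurred in both libraries. Nuclei fell into 15 classes named from marker genes, of which 9 had at least 20 nuclei in each library, and 703 sham and 580 nephrectomy nuclei stayed unnamed. A class name means nuclei like that cell type by these markers. Levels are UMIs per 1000000 UMIs of the class (CPM), and a ratio is nephrectomy over sham CPM. In a whole-library level, fewer cells of a type and less RNA per cell cannot be told apart.

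All 9 members reached 20 UMIs over both libraries, the minimum for calling a ratio of at least 1.5 either way. In the whole library 4 members, C3, C7, Cfi and C4b, were at least 1.5-fold higher after nephrectomy, against 9.59% of all genes with 20 UMIs, and no member was 1.5-fold lower, against 10.6% of those genes. The median log2 ratio of the members was 0.48, against 0.02 for all 17432 such genes. In proximal tubule-like nuclei 5 members, C3, Cfi, C7, C4b and C1qa, were higher (11.7% of all genes) and 1, Cd55, was lower (11.1% of all genes). The intervals of C7 and C1qa there include 1. Few members reached 20 UMIs in the other classes. C7 was higher in fibroblast-like nuclei, Cd46 was higher in distal convoluted or connecting tubule-like, intercalated cell-like and principal cell-like nuclei, and Cfb was lower in the first of these 3. No member passed 1.5-fold either way in thick ascending limb-like nuclei (2 tested, where 9.5% of all genes were higher and 12.3% lower), in endothelial-like nuclei (2 tested, 10.1% and 11.5%), in podocyte-like nuclei (2 tested, 16.7% and 14.3%) or in mural or mesangial-like nuclei (1 tested, 19.9% and 19.6%).

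**Figure D1:**
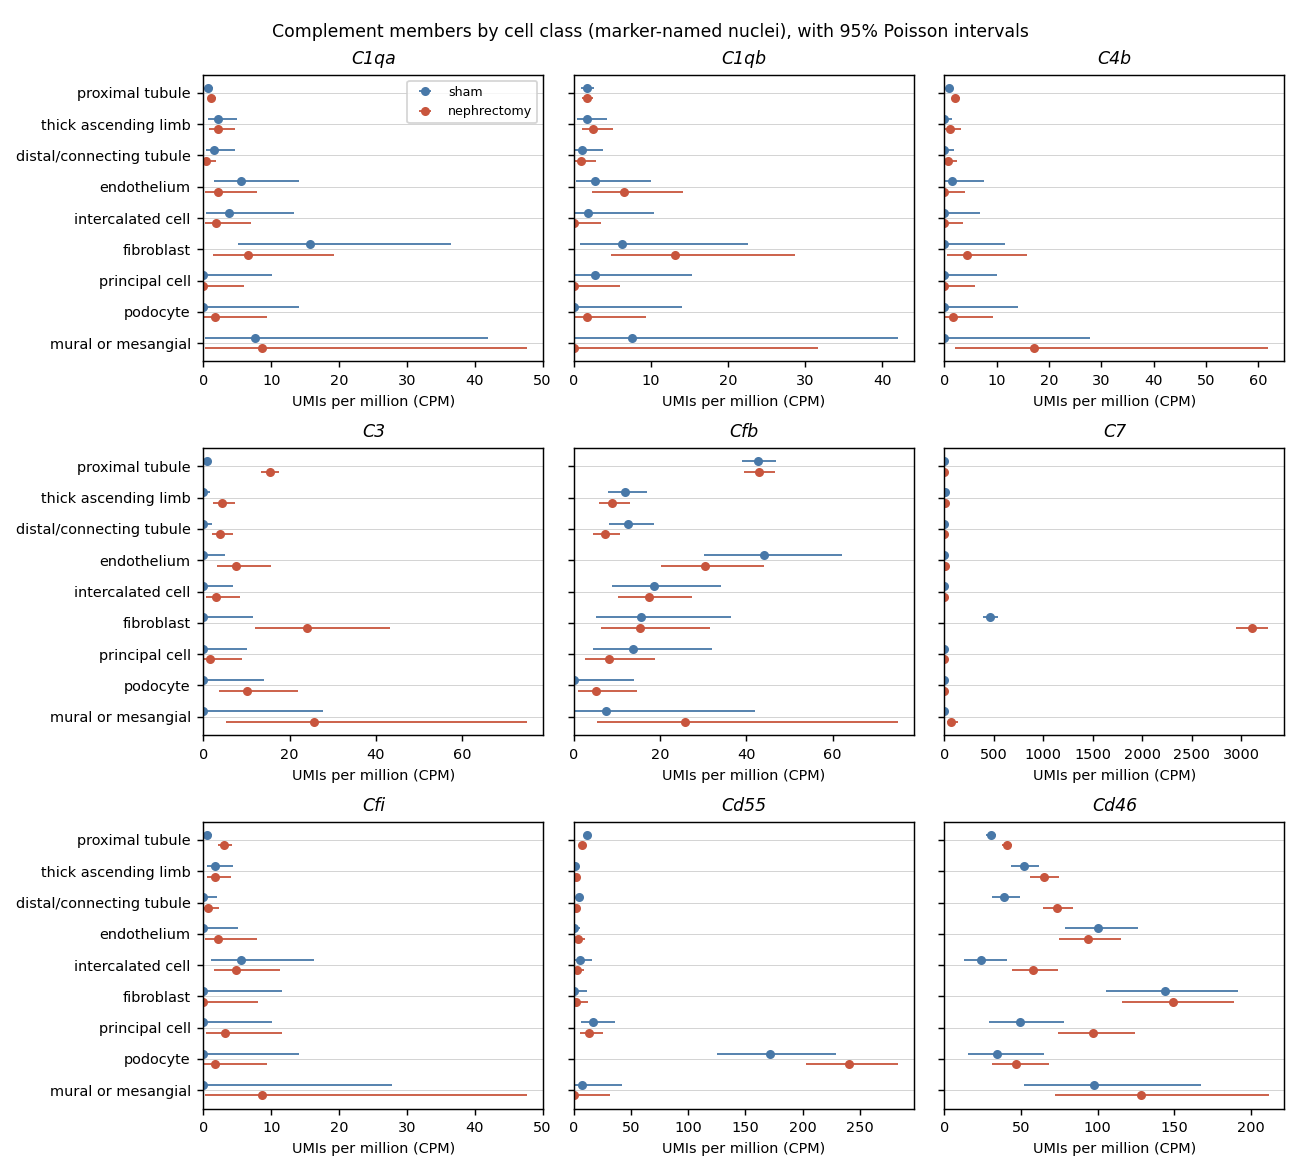
Level of each member (CPM, linear axis that differs between panels) in the 9 cell classes compared, with sham in blue, nephrectomy in red and 95% Poisson intervals for counting error. C7 stands at 463 and 3105 CPM in fibroblast-like nuclei, Cd55 is highest in podocyte-like nuclei at 172 and 241 CPM, and Cd46 is read in every class.

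**Figure D2:**
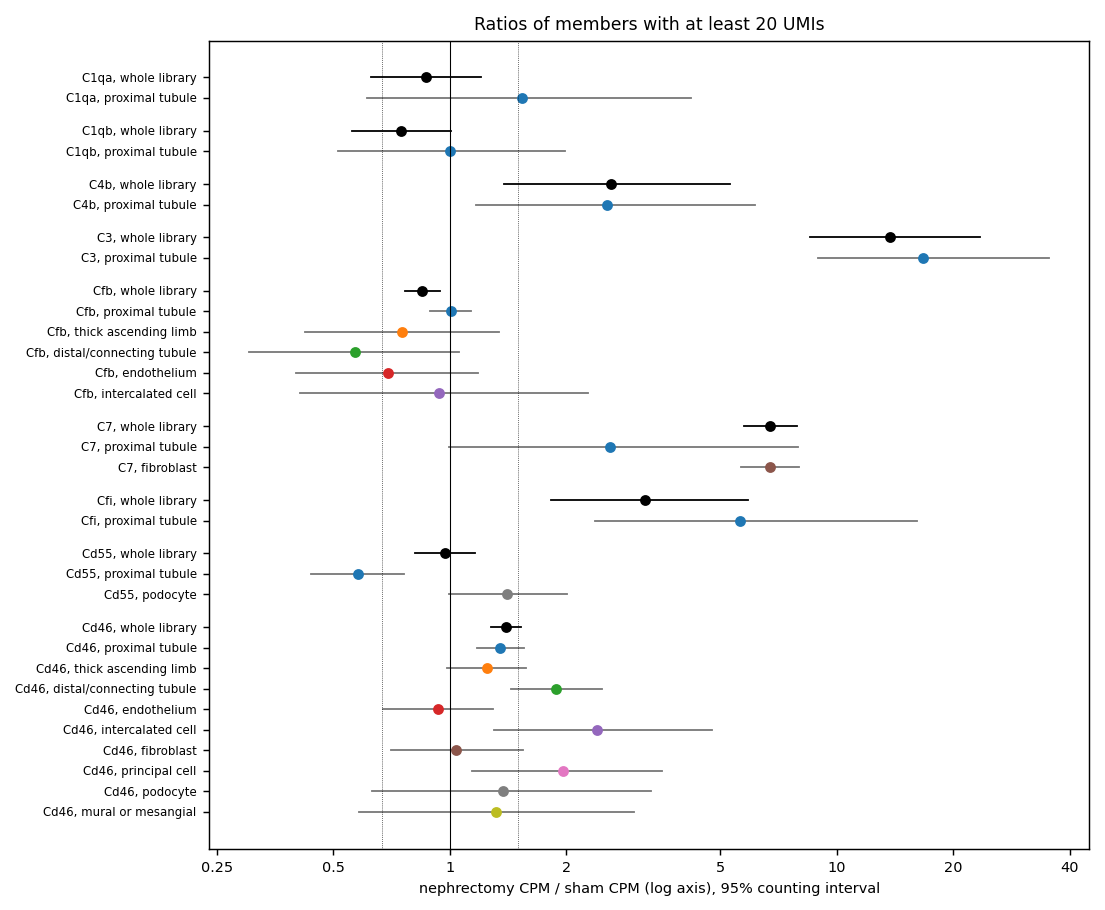
Ratio of nephrectomy to sham CPM (log axis) with its 95% counting interval for every member and class with at least 20 UMIs, where black points are the whole library, coloured points are classes and dotted lines mark 1.5-fold either way. C3 and C7 lie far to the right, at 13.7 and 6.71 in the whole library, and Cd55 in proximal tubule-like nuclei lies to the left at 0.578.

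C1qa and C1qb encode chains of C1q, the recognition molecule of the classical pathway. C1qa was counted 74 times in sham and 83 times after nephrectomy (ratio 0.866, 0.625 to 1.20), and C1qb 97 and 94 times (ratio 0.748, 0.557 to 1.004). Both intervals include 1, and at an equal 1000 UMIs per nucleus the C1qb ratio was 1.33. The mononuclear phagocyte-like class was small, with 12 sham and 14 nephrectomy nuclei, and was therefore not part of the class comparison. C1qb stood at 724 CPM in the sham phagocyte nuclei (29 UMIs in 12 nuclei) and at 341 CPM in the nephrectomy ones (10 UMIs in 14 nuclei). C1qa stood there at 324 and 205 CPM, from 13 and 6 UMIs. These were the highest C1q levels of any named class in each library, and the counts are too few to set the libraries apart firmly: the C1qb ratio was 0.471 (0.205 to 0.995) and that of C1qa 0.631 (0.197 to 1.78). Median depth in the class was 3239 UMIs in sham and 1696 in nephrectomy nuclei, and its part in these values was not tested. Over the whole library all 8 phagocyte markers were read in both libraries, with summed levels of 53.7 and 54.1 CPM. Csf1r made up 21.3 and 17.3 CPM of these sums, and 259 sham and 234 nephrectomy Csf1r UMIs lay in proximal tubule cluster 6, so the sums do not measure phagocyte content alone. Unnamed nuclei held 44.6% of the sham and 43.4% of the nephrectomy C1qa UMIs. One small unnamed cluster, with 3 sham and 8 nephrectomy nuclei, had C1qa at 231 and 412 CPM. In proximal tubule-like nuclei, which should lack C1q, 0.826% and 1.36% of nuclei had a C1qa UMI, and the C1qa ratio of 1.54 there (0.612 to 4.19) rests on 8 and 15 UMIs. Endothelial-like nuclei had a C1qa UMI in 1.81% and 0.794%, so the tubule shares lie in the range of another class that should lack the gene, and the part of free RNA was not tested. The ratio turned to 0.883 when the 3 proximal tubule clusters with at least 50 nuclei of each library were weighted equally.

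C4b encodes complement C4, the second component of the classical pathway. It was sparse, with 13 sham and 44 nephrectomy UMIs, or 0.669 and 1.75 CPM, a ratio of 2.61 (1.38 to 5.29). Proximal tubule-like nuclei held 9 and 28 of these UMIs, which gave 0.827 and 2.11 CPM and a ratio of 2.55 (1.17 to 6.14). The C4b UMIs were scattered 1 or 2 to a nucleus, over 13 sham and 41 nephrectomy nuclei. With every nucleus reduced to the same 1000 UMIs only 3 sham and 4 nephrectomy UMIs remained, a ratio of 1.22, so at equal depth no call was left. C4a, a near-identical copy 65.2 kb away on the same strand of chromosome 17, had 5 and 19 UMIs (ratio 2.93, 1.06 to 10.05). Reads of the C4 pair can be assigned to either copy, so the split between them is uncertain.

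C3 is the central component on which all pathways converge (ENSMUSG00000024164, mm10 chromosome 17, 57203970 to 57228136, minus strand). It had the largest whole-library ratio of the members: 18 UMIs in 17 sham nuclei against 319 UMIs in 183 nephrectomy nuclei, or 0.927 against 12.7 CPM, a ratio of 13.7 (8.51 to 23.4). With every nucleus weighted equally the ratio was 6.83, and at equal depth it was 7.33. In the proximal tubule-like class, the segment that takes back the bulk of the filtered salt and water, it had 10 and 204 UMIs, or 0.919 and 15.4 CPM, a ratio of 16.7 (8.91 to 35.4). No sham nucleus of that class had more than 1 C3 UMI, whereas the highest nephrectomy nuclei had 27, 22 and 15. The share of proximal tubule-like nuclei with a C3 UMI was 1.03% (0.496 to 1.89) in sham and 9.15% (7.51 to 11.01) in nephrectomy. At an equal 1000 UMIs per nucleus these shares were 0.311% (0.0641 to 0.905) and 1.82% (1.12 to 2.80), and the ratio of UMIs was 7.04. The excess therefore remained at equal depth, at a smaller size that rests on 3 sham and 24 nephrectomy UMIs.

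The 250 bases upstream of the RefSeq start sites of C3 and C7 are shown because these members differed most between the libraries (GRCm38.p6, minus strand, 5′ to 3′). Capitals mark matches, on either strand, to GGG and CC with any 5 bases between (NF-kB-like) or to TTNNGNAA (C/EBP-like) and, in C7, also to TTCNNNGAA (STAT-like).
C3, chr17:57228137-57228386: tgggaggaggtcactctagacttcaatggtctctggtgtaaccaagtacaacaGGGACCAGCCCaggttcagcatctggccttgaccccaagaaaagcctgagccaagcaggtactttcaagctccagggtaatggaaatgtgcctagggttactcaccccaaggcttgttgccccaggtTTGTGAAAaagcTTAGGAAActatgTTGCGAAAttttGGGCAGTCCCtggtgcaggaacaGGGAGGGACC
C7, chr15:5063774-5064023: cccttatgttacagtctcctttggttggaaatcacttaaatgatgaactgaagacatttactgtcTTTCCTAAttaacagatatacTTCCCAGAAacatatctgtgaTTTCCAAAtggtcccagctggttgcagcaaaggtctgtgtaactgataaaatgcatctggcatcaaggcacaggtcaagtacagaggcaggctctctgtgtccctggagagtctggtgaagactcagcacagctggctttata
The C3 window held 4 NF-kB-like matches, of which 2 overlap by all but 1 base, and 3 C/EBP-like matches between 70 and 38 bases before the start. The C7 window held no NF-kB-like match, 2 C/EBP-like matches and 1 STAT-like match, 164 to 156 bases before the start. NF-kB-like letters occurred in 45.8% of the 32851 RefSeq promoter windows of this length, C/EBP-like letters in 36.8% and STAT-like letters in 7.02%. Neither window held a match to GAAA and GAAA with any 2 bases between (interferon element-like, 2.98% of windows) or TGANTCA (AP-1-like, 6.75%). Such matches describe the letters and do not show that a factor binds. RefSeq windows matched 5 of the 9 members by symbol.

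Within the proximal tubule-like class, C3 was concentrated in 1 cluster. Cluster 28, named from injured proximal tubule markers such as Havcr1 (kidney injury molecule) and Vcam1 (an adhesion molecule), held 3 sham and 27 nephrectomy nuclei. These markers averaged 3.39 on a log2 scale over the median cluster, and those of the next type, parietal epithelium, 2.11. Cluster 28 was split from the same larger cluster as thin limb-like and urothelial-like nuclei and the parietal epithelial-like nuclei described below. Its place in the proximal tubule-like class rests on the injured markers, which are not confined to that class. They summed there to 213 and 240 CPM in sham and nephrectomy, to 2138 and 2309 CPM in podocyte-like nuclei and to 96.4 and 89.6 CPM in intercalated cell-like nuclei. The nephrectomy nuclei of cluster 28 carried 86 C3 UMIs, or 342 CPM, and 13 of the 27 nuclei had one. These nuclei were 2.45% of the nephrectomy proximal tubule-like nuclei and held 42.2% of their C3 UMIs, although C3 and the other complement genes were kept out of the genes used for clustering. Of the 5 nephrectomy nuclei with at least 8 C3 UMIs, 4 were in this cluster. Its 3 sham nuclei had no C3 UMI, which is too few nuclei to say how the cluster differs between the groups.

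C3 was also higher in the remaining proximal tubule. Without cluster 28 the class had 10 sham and 118 nephrectomy C3 UMIs, or 0.921 and 9.06 CPM, a ratio of 9.84 (5.17 to 21.1). That nephrectomy level lay between those of podocyte-like (10.1 CPM, 6 UMIs) and endothelial-like nuclei (7.61 CPM, 7 UMIs). The part of free RNA in it was not tested. Libraries were spread unevenly over the proximal tubule clusters: cluster 10 held 250 sham nuclei and 1 nephrectomy nucleus, and cluster 8 held 41 and 255. Only 3 clusters had at least 50 nuclei of each library. Cluster 6 went from 0.874 to 12.0 CPM (2 and 27 UMIs) and cluster 1 from 0.726 to 4.24 CPM (2 and 13 UMIs), and cluster 3 had no UMI in 62 sham nuclei and 37 UMIs in 342 nephrectomy nuclei. With those clusters weighted equally the C3 ratio was 15.8.

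**Figure D3:**
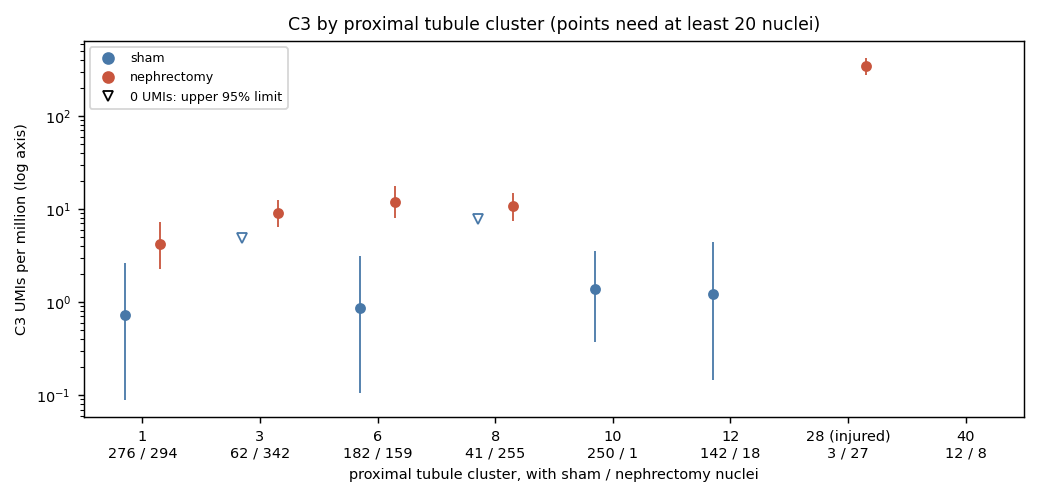
C3 level (CPM, log axis, 95% Poisson intervals) in each proximal tubule cluster for sham (blue) and nephrectomy (red) nuclei, where open triangles are upper limits for 0 UMIs and values from under 20 nuclei are left out. Nephrectomy points lie between 4.24 and 12.0 CPM in clusters 1, 3, 6 and 8 and at 342 CPM in cluster 28.

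Outside the proximal tubule C3 had no UMI in any of the other 8 sham classes compared, while every one of these classes had at least 1 UMI after nephrectomy. Thick ascending limb-like nuclei had 0 and 12 UMIs (at least 3.37-fold higher, taking 3 counts as the floor), distal convoluted or connecting tubule-like nuclei 0 and 12 (at least 2.47-fold higher) and fibroblast-like nuclei 0 and 11 (at least 2.57-fold higher). By level after nephrectomy, mural or mesangial-like (25.7 CPM, 3 UMIs) and fibroblast-like nuclei (24.1 CPM) came before proximal tubule-like nuclei (15.4 CPM). Neighbouring classes in this order did not differ beyond counting error, and classes further apart were not compared in this way. The share of nephrectomy nuclei with a C3 UMI was 2.45% in thick ascending limb-like and 2.38% in endothelial-like nuclei, at median depths of 6895.5 and 3266.5 UMIs. Free RNA in the droplets can give such low shares, and its part was not tested. Parietal epithelial-like nuclei, which line Bowman's capsule, were few but C3-rich after nephrectomy: 2 UMIs in 9 sham nuclei and 28 UMIs in 32 nephrectomy nuclei, or 48.0 and 92.2 CPM. In that library 37.5% of them (21.1 to 56.3) had a C3 UMI.

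Cfb encodes factor B, the protease of the alternative pathway, and hardly differed in the proximal tubule-like class, which held most of it. It had 728 sham and 801 nephrectomy UMIs in all, or 37.5 and 31.8 CPM, a ratio of 0.849 (0.767 to 0.940). In proximal tubule-like nuclei it had 465 and 569 UMIs, or 42.7 and 42.9 CPM, a ratio of 1.00 (0.886 to 1.14), with a UMI in 34.8% and 35.3% of nuclei. Proximal tubule-like and endothelial-like nuclei had the highest levels of the 9 classes in both libraries, and these 2 classes could not be told apart by counting error. Podocyte-like nuclei had 0 and 3 UMIs. In distal convoluted or connecting tubule-like nuclei Cfb had 24 and 22 UMIs and a ratio of 0.567 (0.303 to 1.06), where 15.6% of all genes were 1.5-fold lower. That call ended with stricter filters (0.806) and at Leiden resolution 2 (0.741), and at equal depth the ratio was 0.246, from 6 and 2 UMIs. In the 27 nephrectomy nuclei of cluster 28 Cfb stood at 91.3 CPM (23 UMIs), with 1 UMI in the 3 sham nuclei. C2, which encodes the matching protease of the classical pathway and lies 85 bases from Cfb on the same strand of chromosome 17, had a ratio of 2.04 (1.75 to 2.37) in proximal tubule-like nuclei, from 242 and 601 UMIs. Reads between such close neighbours can be assigned to either. Within cluster 1, which both libraries fill, C2 had a ratio of 1.504 (1.17 to 1.94) and Cfb one of 1.22 (0.957 to 1.55). The order was reversed in cluster 3, with C2 at 1.25 (0.839 to 1.93) and Cfb at 1.32 (0.872 to 2.07). Cluster 6 had C2 at 1.58 (0.697 to 3.72) and Cfb at 0.833 (0.579 to 1.196). With these 3 shared clusters pooled the C2 ratio was 1.64 and the Cfb ratio 1.15. Libraries filled the proximal tubule clusters unevenly, and the part of this in the C2 difference was not tested.

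C7 encodes a component of the membrane attack complex (ENSMUSG00000079105, mm10 chromosome 15, 4988762 to 5063740, minus strand). It was nearly restricted to fibroblast-like nuclei, the matrix-producing cells of the interstitium, which held 82.7% of its sham and 90.9% of its nephrectomy UMIs. There it had 148 UMIs in 73 sham nuclei and 1415 UMIs in 82 nephrectomy nuclei, or 463 and 3105 CPM, a ratio of 6.71 (5.66 to 7.999), where 14.6% of all genes were at least 1.5-fold higher. The class itself was of similar size in both libraries, and its own 7 markers summed to 5700 and 5636 CPM. Of these markers 6 were higher after nephrectomy, among them Dcn (81.3 and 208 CPM), and Fbln5 was lower (2012 and 1549 CPM), and their part in the C7 difference was not tested. An unnamed cluster of 172 sham and 121 nephrectomy nuclei also had Col1a1, Col3a1, Col1a2 and Dcn among its 10 most enriched genes. The phagocyte marker Lyz2 was among them too. The size of the named class therefore does not measure fibroblast content. C7 was not used to name the class. Podocyte-like, principal cell-like and intercalated cell-like nuclei had no C7 UMI in either library, and in proximal tubule-like nuclei 0.620% and 1.36% had one, from 6 and 19 UMIs (ratio 2.60, 0.997 to 7.94).

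The C7 difference was in how many nuclei carried it and in how much each carried. C7 was read in 31 of 73 sham nuclei, 42.5% (31.0 to 54.6), and in 59 of 82 nephrectomy nuclei, 72.0% (60.9 to 81.3). At an equal 1000 UMIs per nucleus the shares were 27.4% (17.6 to 39.1) and 56.1% (44.7 to 67.0). Among nuclei with a UMI the median was 3 in sham and 11 in nephrectomy. At least 8 UMIs were found in 5 sham and 32 nephrectomy nuclei, and at least 20 in 1 and 16. The highest sham nucleus had 38 UMIs and the next 10, while the 3 highest nephrectomy nuclei had 164, 151 and 127. Without the highest nucleus of each library the ratio was 7.93. Nuclei left out as doublets, of any class, held 41 sham and 53 nephrectomy C7 UMIs. The highest of them had 39 in sham and 21 in nephrectomy.

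**Figure D4:**
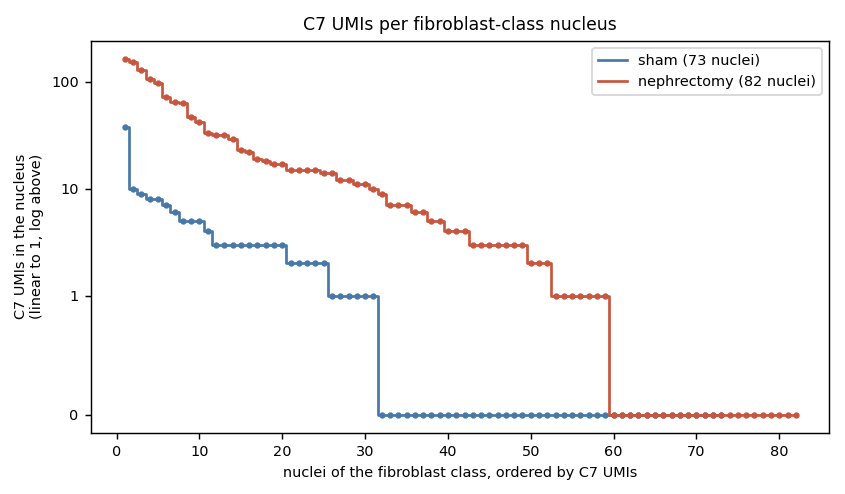
C7 UMIs in each fibroblast-class nucleus (vertical axis, linear to 1 and logarithmic above), ordered from highest to lowest for the 73 sham (blue) and 82 nephrectomy (red) nuclei. The nephrectomy curve lies above the sham curve along its length, from 164 against 38 UMIs in the highest nucleus to the point where each reaches 0, after 59 and 31 nuclei.

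Both fibroblast clusters showed the C7 difference. Cluster 15, with 61 sham and 64 nephrectomy nuclei, went from 520 to 3428 CPM (148 and 1339 UMIs), a ratio of 6.59 (5.55 to 7.86). Cluster 21, with 12 and 18 nuclei, had 0 and 76 UMIs. The ratio depended on which nuclei were counted as fibroblast-like: at Leiden resolutions 0.5 and 2 the class took in further nuclei and C7 stood 10.2-fold and 10.1-fold higher. Endothelial markers also differed within the class, with all 7 higher after nephrectomy and summed levels of 479 and 852 CPM, and their part in the C7 result was not tested. Mural or mesangial-like nuclei had 0 and 8 C7 UMIs, all 8 in a single nucleus.

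Cfi encodes factor I, the plasma protease that inactivates C3b and C4b. It had 16 sham and 66 nephrectomy UMIs, or 0.824 and 2.62 CPM, a ratio of 3.18 (1.82 to 5.89). Proximal tubule-like nuclei held 6 and 41 of these, or 0.551 and 3.09 CPM, a ratio of 5.60 (2.36 to 16.1), and no other class reached 20 UMIs. Cluster 1, which both libraries fill, accounted for 4 sham and 17 nephrectomy Cfi UMIs, a ratio of 3.82 (1.25 to 15.6). With the 3 shared clusters weighted equally the ratio was 2.62. Cluster 28 had the highest level after nephrectomy, 23.8 CPM from 6 UMIs. Cfi thus stood higher in the same class as C3, but was too sparse to follow at equal depth, where 0 and 2 UMIs remained in it.

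Cd55 encodes decay-accelerating factor, a membrane protein that dismantles the C3 convertases. Podocyte-like nuclei, from the glomerular filter, had the highest level among these classes in both libraries: 45 UMIs in 45 sham nuclei and 143 UMIs in 76 nephrectomy nuclei, or 172 and 241 CPM. The next of the 9 classes was the principal cell-like one at 16.4 and 12.9 CPM, below the podocyte-like level beyond counting error. The podocyte ratio was 1.40 (0.997 to 2.01), so a difference was not detectable at this depth. Podocyte-like nuclei held 20.1% of the sham and 50.7% of the nephrectomy Cd55 UMIs. A Cd55 UMI was found in 55.6% (39.997 to 70.4) and 72.4% (60.9 to 82.0) of them, and at equal depth in 13.3% and 15.8%. Endothelial-like nuclei had a Cd55 UMI in 0 of 221 sham nuclei, which with 3 counts as the floor allows a share of nuclei with a UMI of up to 1.36%, and in 1.19% of nephrectomy nuclei. The 6 podocyte markers summed to 16821 and 15404 CPM in the class.

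Proximal tubule-like nuclei had a lower level after nephrectomy, with 129 sham and 91 nephrectomy Cd55 UMIs, or 11.9 and 6.86 CPM, a ratio of 0.578 (0.437 to 0.762). Libraries filled the proximal tubule clusters unevenly, and its part in this difference was not tested. Cluster 6 held 76 of the 129 and 55 of the 91 UMIs, and within it Cd55 stood at 33.2 and 24.5 CPM, a ratio of 0.738 (0.512 to 1.06). Cluster 10, almost entirely sham, held another 39 of the sham UMIs. Of the remaining clusters that both libraries fill, cluster 3 had 4 and 22 UMIs, a ratio of 1.02 (0.346 to 4.07). Cluster 1 had 2 and 3 UMIs, too few for a ratio. Over the 3 shared clusters pooled the ratio was 0.602 (0.437 to 0.829). With those clusters weighted equally it was 0.787, and at equal depth over the whole class it was 0.763, so neither of these reached 1.5-fold. Over the whole library Cd55 had 224 and 282 UMIs and a ratio of 0.971 (0.812 to 1.16). Cd55b, a close copy 16.0 kb away, had 9 and 8 UMIs, and reads of the pair may be split between them.

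Cd46 encodes membrane cofactor protein, which in humans lets factor I cut C3b and C4b on the cell surface. Protein was not measured, and mouse Cd46 was counted as RNA only. It was read in all 9 classes, from 24.1 CPM in intercalated cell-like to 144 CPM in fibroblast-like sham nuclei, and from 40.7 CPM in proximal tubule-like to 149 CPM in fibroblast-like nephrectomy nuclei. Neighbouring classes in this order did not differ beyond counting error in either library. Classes further apart were not compared in this way, so the levels are not shown to be alike over the classes. Over the whole library it had 769 and 1389 UMIs, or 39.6 and 55.2 CPM, a ratio of 1.39 (1.28 to 1.52), and 17.7% and 25.5% of nuclei had a UMI. At equal depth the shares were 4.67% and 5.21% and the ratio 1.11.

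Cd46 passed 1.5-fold in 3 classes, all of the distal nephron and collecting duct. Distal convoluted or connecting tubule-like nuclei had 75 and 228 UMIs, or 39.2 and 73.7 CPM, a ratio of 1.88 (1.44 to 2.47), where 7.7% of all genes were at least 1.5-fold higher. Intercalated cell-like nuclei, which handle acid and base, had 13 and 60 UMIs and a ratio of 2.40 (1.30 to 4.76; 12.7% of all genes higher), and principal cell-like nuclei, which handle water and sodium, had 18 and 60 UMIs and a ratio of 1.96 (1.14 to 3.53; 12.2% of all genes higher). Endothelial-like and fibroblast-like nuclei had ratios of 0.930 (0.673 to 1.29) and 1.04 (0.703 to 1.54), and the difference between classes was not tested. Proximal tubule cluster 6 had a ratio of 2.09 (1.53 to 2.88), against 1.34 (0.993 to 1.82) in cluster 1. The calls did not all survive other settings: the distal convoluted or connecting tubule ratio was 1.38 at equal depth, and the intercalated ratio was 1.45 with every nucleus weighted equally. The order of the classes changed with depth as well. At equal depth the ratio was 2.56 in intercalated cell-like, 1.73 in principal cell-like, 1.64 in mural or mesangial-like and 1.55 in proximal tubule-like nuclei, and 0.987 in podocyte-like, 0.935 in thick ascending limb-like, 0.628 in fibroblast-like and 0.594 in endothelial-like nuclei. In principal cell-like nuclei connecting tubule markers also stood higher, all 5 of them, with summed levels of 1727 and 3964 CPM, and their part in the Cd46 value was not tested. Cr1l, another membrane regulator 5.13 kb from Cd46 on the same strand of chromosome 1, had a whole-library ratio of 1.14 (1.06 to 1.22) from 1376 and 2028 UMIs.

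Among the other 51 complement genes of the files, 29 reached 20 UMIs in the whole library, with a median log2 ratio of 0.19. Of these, 4 were at least 1.5-fold higher and 4 lower, where 9.59% of all genes were higher and 10.6% lower. The counts by role that follow include the members, stand beside the same shares, and each rest on 12 genes or fewer. Of the 12 classical and lectin pathway genes tested, 3 were higher (C4a, C4b and C2) and 1 lower, C1ra at 0.641 (0.430 to 0.952), which encodes a protease of the C1 complex. Of the 5 terminal pathway genes tested, C7 alone was higher and 3 were lower: C8a, C8b and C8g, which encode the chains of C8, had ratios of 0.543, 0.528 (0.240 to 1.13) and 0.465. C8a is the best counted of them, with 602 and 424 UMIs, and most lay in proximal tubule cluster 6, where its ratio was 0.786 (0.681 to 0.906). Cluster 10, almost entirely sham, held another 64 sham C8a UMIs and 1 nephrectomy UMI, and its part in the C8a difference was not tested. C7 and C8a, whose products join the same complex, thus lay mostly in different cell classes, with whole-library ratios on opposite sides of 1. Of 5 soluble regulators only Cfi was higher. Of 9 membrane regulators only Csmd1, a large membrane protein with complement control domains, was higher, at 2.501 (2.32 to 2.69). Of 4 receptors 1 was higher, the integrin chain Itgb2 at 2.70 (1.20 to 6.86) from 8 and 28 UMIs.

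**Figure D5:**
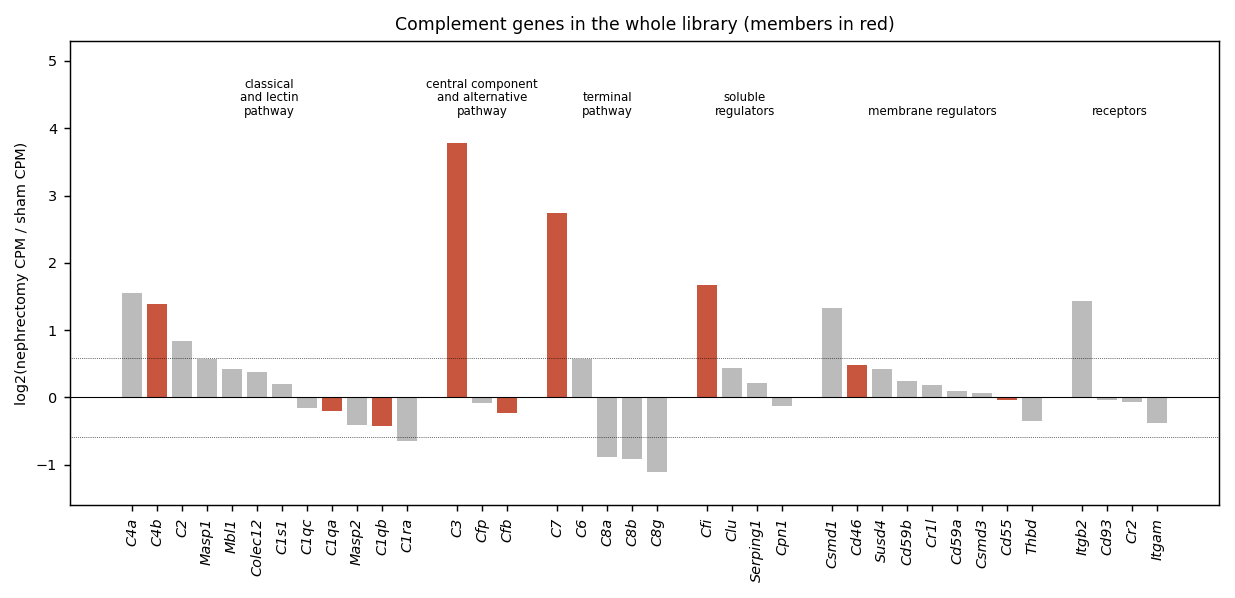
Whole-library log2 ratio of nephrectomy to sham CPM for complement genes with at least 20 UMIs, grouped by role, with the 9 members in red, other genes in grey and dotted lines at 1.5-fold either way. C3 (3.77), C7 (2.75), Cfi (1.67) and C4b (1.39) are the members above the upper line, and C8a, C8b and C8g lie below the lower one.

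Csmd1 gave a scale for C7 in the fibroblast class. It went from 1993 to 5842 CPM there (637 and 2662 UMIs), a ratio of 2.93 (2.69 to 3.20). C7 thus had the highest ratio of the complement genes with 20 UMIs in this class. In thick ascending limb-like nuclei Clu, which encodes clusterin, an inhibitor of the terminal complex, had 38 and 129 UMIs and a ratio of 2.86 (1.98 to 4.23). In proximal tubule-like nuclei Masp1, a lectin pathway protease, had 5 and 26 UMIs and a ratio of 4.26 (1.61 to 14.2).

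Genes whose level followed a member across the 18 points of 9 classes by 2 libraries were found by Pearson correlation of log2(CPM + 1). These points share libraries and depth, and the values are descriptions. C7 was followed most closely by Fn1 (fibronectin, 0.95), Slco2b1 (0.94) and Gabra3 (0.92), and Cfb by Foxo1 (0.94), Plin2 (0.94) and Cmip (0.90). Cd55 was followed by Mpp5 (0.92), Dpp4 (0.87) and Slc41a2 (0.87), and Cd46 by Tbc1d2b (0.90) and B3galt1 (0.88). For C3 they were Clk1 (0.86), Rpl41 (0.80) and Setd2 (0.79). C1qa and C1qb had few UMIs in the classes compared, and their closest genes were Pdlim7 (0.90), Adamts5 (0.89) and Klhl13 (0.89), and Ptpn11 (0.85), Smarcd2 (0.84) and Mbd1 (0.83).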

How the data were processed

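Per the file headers, the authors deposited UMI counts per gene and barcode made with Cell Ranger, version 7.0.1 in the header and 7.1.0 in the submitters' processing notes, which name the mm10 build. The treatment of intronic reads and the barcode call are not given in the sources used here. The members and the gene lists were chosen with earlier results of these data known.

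A barcode needed 200 genes and no more than 10% mitochondrial UMIs, and 109 sham and 112 nephrectomy barcodes failed this. Scrublet called 1 doublet and was taken not to have worked, so nuclei above the 3% highest scores of their library (153) and 3 clusters with at least 20% such nuclei (159 nuclei) were left out. Both libraries were clustered together without batch centring (2000 variable genes, 30 components, 15 neighbours, Leiden resolution 1). Complement, mitochondrial and ribosomal genes were kept out of the clustering. Clusters close to several types were split again, giving 42 clusters, of which 34 were named from markers of 25 types (at least 3 markers, each 2-fold over the median cluster and in 5% of nuclei). The doublet, naming and splitting rules were set after looking at the data.

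UMIs were summed per class. Levels have exact Poisson intervals, shares Clopper-Pearson intervals and ratios exact conditional binomial intervals, which cover counting error only. Against 0 a ratio is a lower bound with 3 counts per library, and no fold is given where both counts are 3 or fewer. Nuclei under 1000 UMIs (318 sham, 275 nephrectomy) were left out when thinning. All 9 members were named by rule. Other complement genes needed 20 UMIs and 1.5-fold: any in the whole library, and the 3 highest and 3 lowest of a class. Cr1l and Cd55b, named as a neighbour and a close copy, were chosen after their values were seen. Genes that are not reported here are left out of the text and the plot by role, but stay in the counts. Followers were the 3 genes with the highest correlation among those with 300 UMIs. Alternatives were other scalings, weights, depths, filters, doublet handling and clusterings. Equal weight over shared proximal tubule clusters for members other than C3, and the C7 nuclei under other clusterings, were added after seeing the data.

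On simulated Poisson counts for the whole library (17422 genes), 95.0% of genes set 2-fold higher passed 1.5-fold in that direction. Of unchanged genes, 4.0% were called at 1.5-fold either way, higher or lower. In a class of the fibroblast size (6427 genes) these shares were 88.0% and 16.9%. Variation between mice was not simulated. Gene positions are from GENCODE M21. Python 3.11.15, scanpy 1.11.5, scipy 1.17.1, leidenalg 0.10.2, R 4.3.3 and edgeR 4.0.16 (TMM factors only) were used.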

Additional observations from a re-analysis of the deposited data

Results flagged for a closer look

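Nuclei that could not be given a class entered no class comparison, and 3 members stood higher there after nephrectomy with an interval that excludes 1. C3 had 5 sham and 31 nephrectomy UMIs in unnamed nuclei, a ratio of 6.51 (2.51 to 21.5). C7 had 19 and 83 UMIs there, a ratio of 4.59 (2.76 to 8.002). Cd46 had 48 and 74 UMIs, a ratio of 1.62 (1.11 to 2.38). In the other direction, Cfb had 149 and 101 UMIs there, a ratio of 0.712 (0.547 to 0.923), and Cd55 had 26 and 12, a ratio of 0.485 (0.223 to 0.995). Unnamed nuclei were 24.5% of the sham and 19.0% of the nephrectomy nuclei, and most lay in clusters of low depth, so which cells these UMIs came from was not tested.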

How the results depend on the processing

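No paired analysis was possible because each group is 1 library and the labels share fewer than 2 replicate numbers. For the same reason no replicate could be left out in turn. Of the ratios called at 1.5-fold, 1 changed direction: C1qa in proximal tubule-like nuclei, at 0.883 with equal weight over the shared proximal tubule clusters. The C3 ratio in proximal tubule-like nuclei ranged from 7.04, after thinning to 1000 UMIs, to 17.4, at Leiden resolution 0.5. With every nucleus weighted equally it was 9.505. The C7 ratio in fibroblast-like nuclei was 5.32 after thinning, 8.23 without doublet removal, 10.2 at Leiden resolution 0.5 and 10.1 at resolution 2. Under the latter 3 settings the class held 92 to 126 sham nuclei in place of 73, and the sham level was 281 to 286 CPM in place of 463. The count of 4 members at least 1.5-fold higher stayed at 4 under 9 of 10 alternatives, 2-fold among them, and was 3 after thinning, where C4b fell below 1.5-fold. Of the list counts by role, higher classical and lectin pathway genes went from 3 to 6 with equal weight per nucleus. Without a UMI minimum the higher genes went from 1 to 2 among central and alternative pathway genes, soluble regulators and receptors, and the lower receptors from 0 to 1. Receptors also went to 2 higher with equal weight. The causes of these shifts were not tested. TMM and median-of-ratios scaling moved levels by more than 0.1 on the log2 scale only in principal cell-like nuclei (-0.12 and -0.11) and, for the latter, in mural or mesangial-like nuclei (0.11). Over 30 other member ratios, 241 of 264 alternative values kept their direction, where called, and lay within the counting interval of the main value, and 22 lay outside it, most of them after thinning. Depth limits C4b, Cfi, C1qa and C1qb, which had under 200 UMIs each over both libraries.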
